A study of Rattus norvegicus with 20 samples.

Results

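The genes described here are 34 genes of fatty acid oxidation and targets of the nuclear receptor PPAR-alpha, listed by name as a pathway, with earlier results of these livers known. Of the 34, 32 were found among the 32883 genes of the deposited table, 1 row each, and Cd36 and Eci2 were not analysed here. The livers came from 20 male rats in 4 groups of 5, and each RNA library is a separate rat. KYDS+BGZ_L rats were given both hydrocortisone (25 mg/kg) and a powder called BGZ_L (0.9 g/kg), and are labelled as a model of kidney-yang deficiency syndrome treated with BGZ_L. KYDS rats received hydrocortisone at 25 mg/kg alone and carry the same disease label. BGZ_L rats received the powder at 0.9 g/kg alone, CON rats received 0.5% sodium carboxymethylcellulose, and both are labelled healthy. The 4 groups form a 2 by 2 design, in which hydrocortisone can be compared with its absence both in rats given BGZ_L and in rats not given it. The sources used here give neither strain, age nor the length of dosing, and what the letters BGZ_L stand for is not stated in the labels.

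Long-chain fatty acids that enter a hepatocyte are held by a binding protein, joined to coenzyme A, and carried into mitochondria as carnitine esters, where beta-oxidation shortens them in repeated rounds to acetyl-CoA. Peroxisomes shorten the very long chains, microsomal CYP4A enzymes oxidise the far end of the chain, and the liver turns surplus acetyl-CoA into ketone bodies for other organs. PPAR-alpha, encoded by Ppara, is a fatty acid sensor that pairs with the receptor RXR on direct repeats of AGGTCA spaced by a single base and switches on many of these genes in fasting. Glucocorticoids such as hydrocortisone act through their own receptor, and are known to raise fat release from adipose tissue and to induce genes of glucose production in liver.

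Values were treated as TPM, transcript abundances per gene length on a common scale per library. On that reading, levels can be compared between genes. They were divided by 1 factor per library before use and are called scaled TPM below. Depth is not known, since TPM keeps no read totals. Mitochondrially encoded transcripts took 26.6% to 70.2% of the TPM in KYDS+BGZ_L livers, 19.2% to 68.9% in KYDS livers, 39.6% to 81.9% in BGZ_L livers and 65.6% to 90.1% in CON livers. The scaling factors ran from 0.231 to 2.01, and BGZ_L 3 and CON 2 had the lowest (0.345 and 0.231). Ribosomal RNA genes held 18.4% of the TPM of BGZ_L 1 and at most 7.36% of any other library. Hepatocyte markers were present in every library, 11 of 11, and their summed level was 11458 to 58967 scaled TPM in KYDS+BGZ_L, 7729 to 77416 in KYDS, 6390 to 7272 in BGZ_L and 6118 to 11868 in CON livers. In bulk tissue, fewer cells of a type and less RNA per cell cannot be told apart.

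With hydrocortisone on top of BGZ_L, genes for fatty acid activation and import (Acsl1, Slc25a20), omega-oxidation (Cyp4a2, Cyp4a3, Cyp4a8), acyl-CoA hydrolysis (Acot2), ketone body metabolism (Bdh1) and lipid binding and storage (Fabp1, Plin2) rose, and the receptor gene Ppara fell. Of these genes, Cyp4a8 passed the filter on low values only through livers given hydrocortisone, so a rise was the only call open to it. With hydrocortisone alone, Acsl1, Bdh1 and Plin2 rose, as did 2 genes of the mitochondrial oxidation machinery, Hadha and Etfdh. In KYDS+BGZ_L against BGZ_L livers, 9 of the 32 members rose and 1 fell at an adjusted p under 0.05 (limma with Benjamini-Hochberg adjustment over 11869 genes), while 17.4% of all genes tested passed. In KYDS against CON livers, 5 rose and none fell, with 6.27% of all genes passing. There, 13 members had an unadjusted limma p under 0.05, beside 2856 of the 11869 genes. In KYDS+BGZ_L against BGZ_L livers it was 14 members, beside 3831 of the 11869 genes. Of all genes, 8.82% rose and 8.55% fell in KYDS+BGZ_L against BGZ_L livers, and 3.25% rose and 3.02% fell in KYDS against CON livers. Below, values with BGZ_L are those of KYDS+BGZ_L against BGZ_L livers and values without it those of KYDS against CON livers. Acsl1, Bdh1 and Plin2 passed in both comparisons, which is 3 of the 10 called with BGZ_L and 3 of the 5 called without it. When each library was left out in turn, 5 to 11 members passed with BGZ_L, and 5 without KYDS+BGZ_L 1 or 4. Counts over all genes moved too, from 1102 to 2517 passing, beside 2062 with every library kept. Dropping KYDS+BGZ_L 1 left 1140 genes, and dropping KYDS+BGZ_L 4 left 1102. In KYDS against CON livers, 1 to 6 members passed. The count was 1 to 3 without KYDS+BGZ_L 5, KYDS 1, 2, 3 or 5, BGZ_L 5, or CON 1, 2, 4 or 5. Between 224 and 1075 of all genes passed there, beside 744 with every library kept. The member count did not always follow. Dropping CON 4 left 3 members but 1075 genes, and dropping CON 3 left 4 members but 346 genes.

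The median log2 fold change of the 32 members was 0.32 in KYDS+BGZ_L against BGZ_L livers and 0.48 in KYDS against CON livers, beside 0.06 and 0.05 over all genes tested. Of the members, 23 lay above 0 in the first comparison and 25 in the second, beside 6368 and 6329 of the 11869 genes tested. The other members, 22 of 32 with BGZ_L and 27 of 32 without it, did not pass. Libraries of the 2 groups did not overlap for 7 higher members and 1 lower one in KYDS+BGZ_L against BGZ_L livers (7.20% and 5.97% of all genes) and for 3 higher members in KYDS against CON livers (3.32% of all genes, with 3.17% lower). Over all genes, 1047 rose and 1015 fell in KYDS+BGZ_L against BGZ_L livers, and 386 rose and 358 fell in KYDS against CON livers. Without scaling these were 1809 and 233 with BGZ_L, and 5867 and 66 without it; the median of all genes then stood at 0.63 and 1.03 on the log2 scale and that of the members at 1.13 and 1.77. Unscaled, 8 members rose with BGZ_L and 25 without it, and none fell. With TPM taken over nuclear-encoded genes alone, 357 genes rose and 219 fell with BGZ_L and 75 rose and 17 fell without it; 5 members rose with BGZ_L (Acot2, Acsl1, Cyp4a2, Cyp4a3 and Cyp4a8) and none passed without it.

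**Figure D1:**
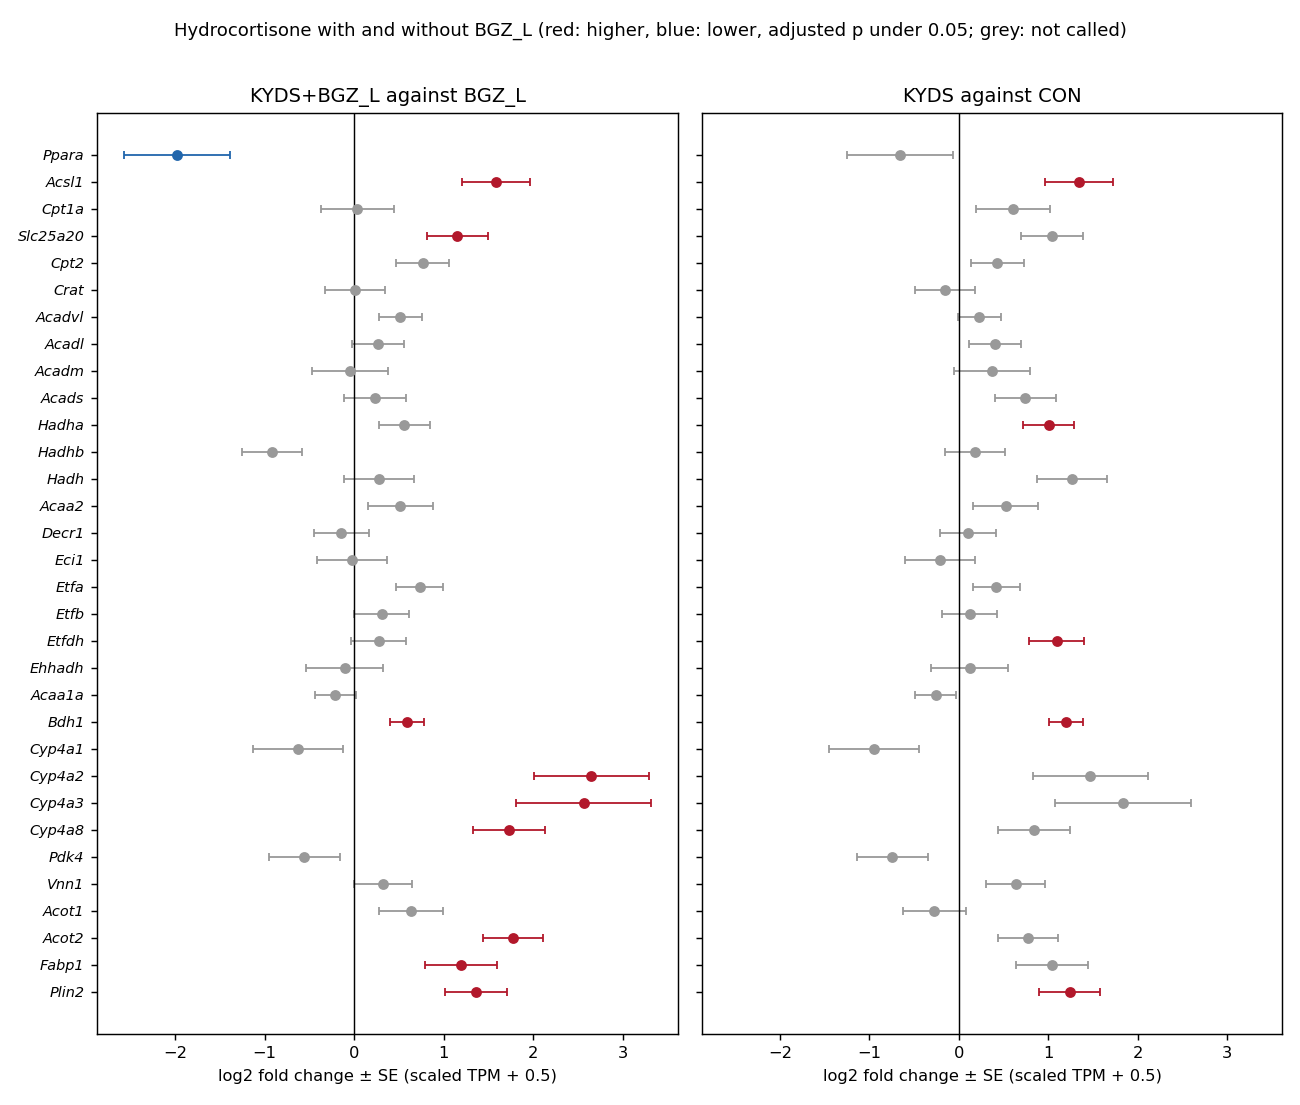
Log2 fold change with its standard error for each of the 32 members, in scaled TPM + 0.5, for KYDS+BGZ_L against BGZ_L (left) and KYDS against CON (right), ordered by role from top to bottom. Red points passed as higher, the blue point passed as lower and grey points did not pass; the 9 red points on the left reach from 0.59 for Bdh1 to 2.65 for Cyp4a2, and the 5 on the right lie between 1.01 and 1.34.

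Ppara (ENSRNOG00000021463) was the one member that fell. Its level was 0.939, 3.91, 4.79, 0.811 and 2.76 scaled TPM in KYDS+BGZ_L livers, against 21.7, 7.54, 6.43, 13.3 and 7.67 in BGZ_L livers. Every KYDS+BGZ_L liver was below every BGZ_L liver, and the log2 fold change was -1.99 ± 0.59 (SE, adjusted p = 0.0269). In the rats without BGZ_L it was 8.75, 12.3, 1.23, 10.3 and 2.36 scaled TPM in KYDS livers, against 8.87, 13.7, 2.66, 20.9 and 6.38 in CON livers, with wide overlap. There the log2 fold change was -0.66 ± 0.59 (SE, adjusted p = 0.520), and it took the other sign, 0.57, without scaling. The call in KYDS+BGZ_L against BGZ_L was lost without KYDS+BGZ_L 1 or 4 or without BGZ_L 1 or 4; over all 20 fits that each left out a library the log2 fold change ran from -2.23 to -1.72 and the adjusted p reached 0.0827. It was also lost without scaling (-1.28, adjusted p = 0.150), with TPM over nuclear genes (adjusted p = 0.106), without the filter on low values (adjusted p = 0.0510) and with the ratio of nuclear to mitochondrially encoded TPM as a covariate (adjusted p = 0.141).

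Acsl1 and Slc25a20 led the genes that bring fatty acids to the mitochondrial matrix, and Cpt1a, the rate-controlling carnitine transferase of the outer membrane, did not pass in either comparison. Acsl1 (ENSRNOG00000010633), the ligase that joins long-chain fatty acids to coenzyme A, was at 57.2, 48.9, 67.7, 83.0 and 58.7 scaled TPM in KYDS+BGZ_L livers, against 44.0, 11.5, 18.2, 15.1 and 25.4 in BGZ_L livers. All 5 KYDS+BGZ_L livers lay above the highest BGZ_L liver, with a log2 fold change of 1.58 ± 0.38 (SE, adjusted p = 0.00918). Without BGZ_L, Acsl1 was at 85.7, 76.0, 116, 76.1 and 66.1 scaled TPM in KYDS livers, against 31.1, 20.8, 15.0, 47.9 and 73.6 in CON livers. Only CON 5 reached into the KYDS range, and the log2 fold change was 1.34 ± 0.38 (SE, adjusted p = 0.0437). That call held in 9 of 20 fits that each left out a library; it was lost without KYDS+BGZ_L 1, 3 or 5, KYDS 1, 2, 3 or 5, BGZ_L 5, or CON 1, 2 or 3. Over all 20 of these fits the log2 fold change ran from 1.07 to 1.64, and with the ratio of nuclear to mitochondrially encoded TPM as a covariate it was 0.68 (adjusted p = 0.824).

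Slc25a20 (ENSRNOG00000020288), the inner-membrane carrier that exchanges acylcarnitine for carnitine, had 51.6, 20.2, 18.4, 53.6 and 29.1 scaled TPM in KYDS+BGZ_L livers, against 12.5, 13.9, 15.6, 11.3 and 16.4 in BGZ_L livers. The groups did not overlap, and KYDS+BGZ_L 1 and 4 stood well above the other KYDS+BGZ_L livers. The log2 fold change was 1.15 ± 0.34 (SE, adjusted p = 0.0270). The call was lost without KYDS+BGZ_L 1 or 4 or BGZ_L 4, and with the nuclear to mitochondrial covariate, where the log2 fold change was 0.75 (adjusted p = 0.167); over all 20 fits that each left out a library it ran from 0.96 to 1.34. In KYDS and CON livers Slc25a20 was at 17.2, 20.4, 49.6, 13.6 and 28.5 scaled TPM in KYDS livers, against 16.1, 9.46, 7.65, 11.1 and 12.6 in CON livers. CON 1 reached above KYDS 4, and the log2 fold change of 1.04 ± 0.34 (SE, adjusted p = 0.0718) did not pass.

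Cpt1a (ENSRNOG00000014254) had 22.9, 22.8, 19.7, 9.24 and 20.5 scaled TPM in KYDS+BGZ_L livers, against 35.4, 11.7, 11, 20.2 and 18.6 in BGZ_L livers. The log2 fold change was 0.04 ± 0.41 (SE, adjusted p = 0.964), with a 95% interval of -0.82 to 0.89. Without BGZ_L, Cpt1a had 36.0, 69.0, 18.1, 26.4 and 19.1 scaled TPM in KYDS livers, against 30.4, 18.5, 8.30, 26.6 and 21.3 in CON livers. KYDS 2 stood above all other livers, and the log2 fold change of 0.61 ± 0.41 (SE, adjusted p = 0.381) did not pass. Cpt2, which regenerates acyl-CoA inside the matrix, had log2 fold changes of 0.77 ± 0.30 (SE, adjusted p = 0.0818) in KYDS+BGZ_L against BGZ_L and 0.43 ± 0.30 (SE, adjusted p = 0.390) in KYDS against CON livers. Crat, the carnitine acetyltransferase, had 0.01 ± 0.34 (SE, adjusted p = 0.985) with BGZ_L and -0.15 ± 0.34 (SE, adjusted p = 0.816) without it.

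**Figure D2:**
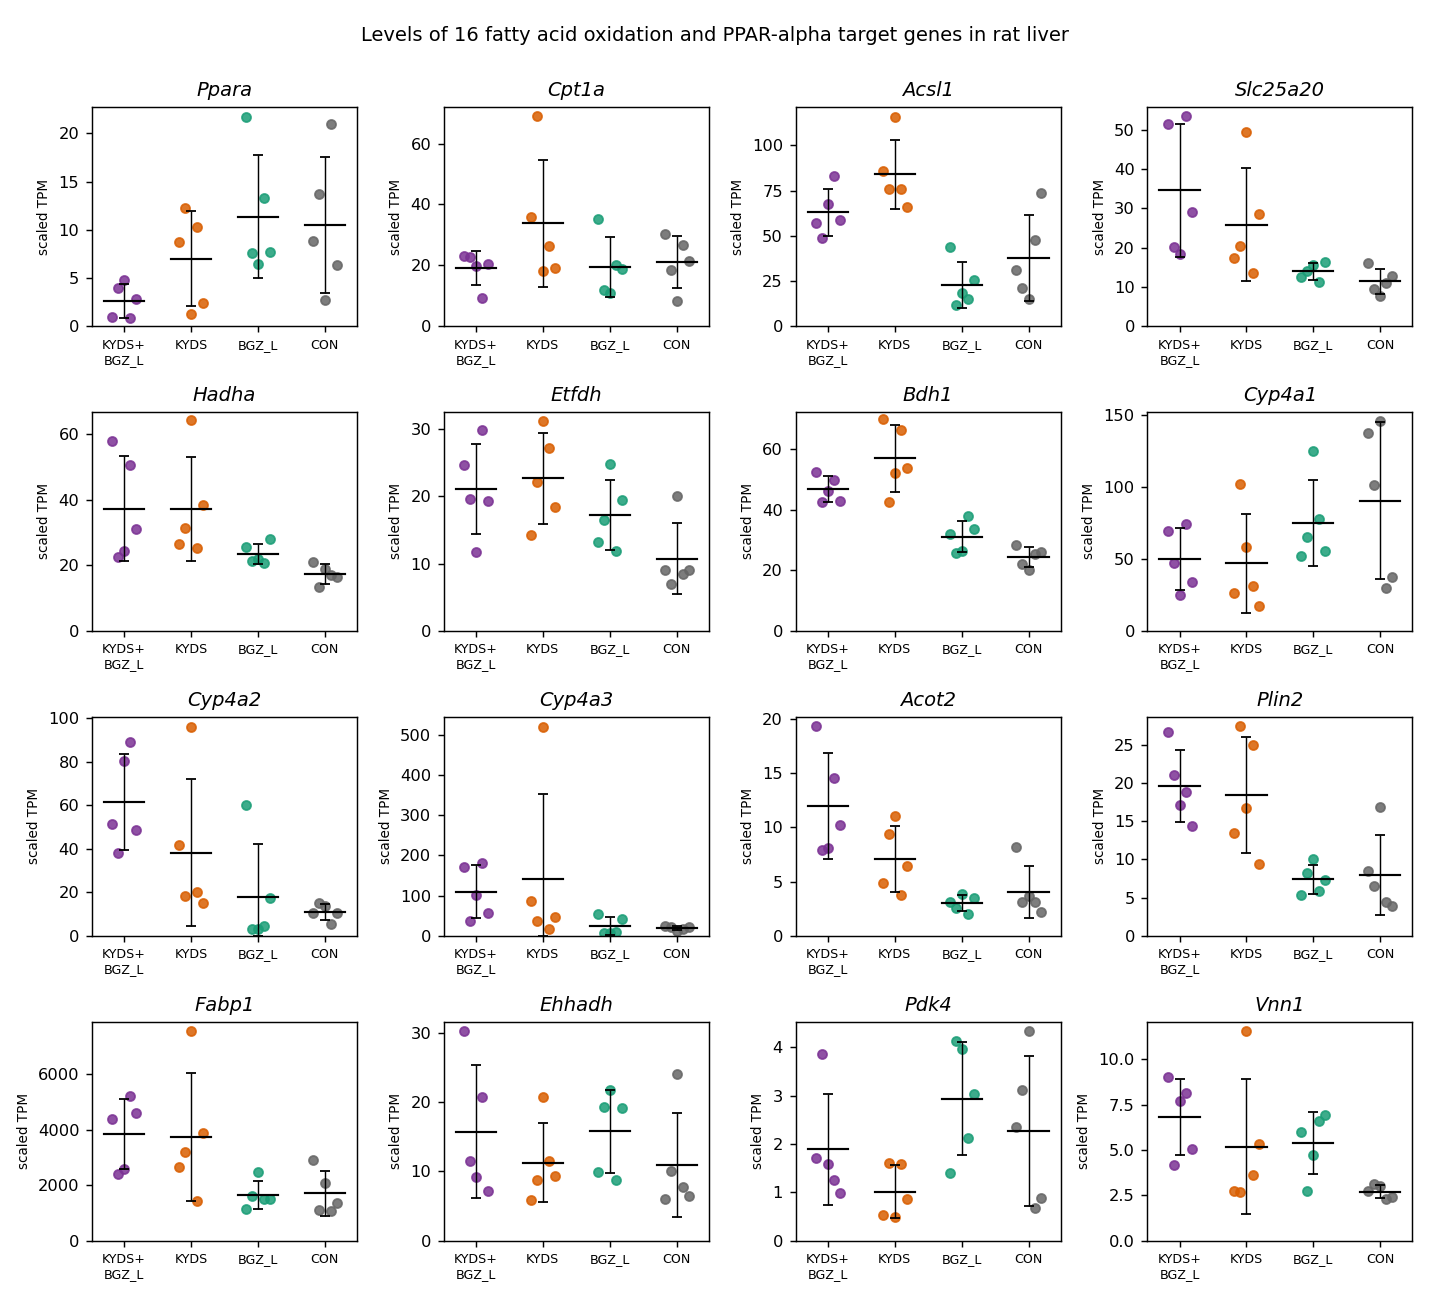
Level of 16 members in scaled TPM (vertical axes, linear, from 0) in each of 20 livers, with KYDS+BGZ_L, KYDS, BGZ_L and CON from left to right; points are livers, and bars are the mean with the SD of 5. Acsl1, Bdh1 and Plin2 sit higher in both groups given hydrocortisone, Ppara is lowest in KYDS+BGZ_L livers, and the KYDS points of Cyp4a3 reach 519 in a single liver.

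Of the 13 members of mitochondrial beta-oxidation, Hadha and Etfdh rose in KYDS against CON livers and none passed in KYDS+BGZ_L against BGZ_L livers. Hadha (ENSRNOG00000024629) encodes the alpha subunit of the trifunctional protein, which carries out the last steps of each round on long chains. It was at 26.6, 31.2, 64.2, 25.3 and 38.4 scaled TPM in KYDS livers, against 21.1, 13.3, 18.9, 17.1 and 16.3 in CON livers. The groups did not overlap, and KYDS 3 was far above the rest. The log2 fold change was 1.01 ± 0.28 (SE, adjusted p = 0.0437). With BGZ_L, Hadha was at 57.9, 22.4, 24.3, 50.4 and 31.1 scaled TPM in KYDS+BGZ_L livers, against 25.5, 21.4, 21.8, 20.8 and 27.9 in BGZ_L livers. BGZ_L 1 and 5 overlapped with KYDS+BGZ_L livers, with a log2 fold change of 0.56 ± 0.28 (SE, adjusted p = 0.182). Hadhb, the beta subunit of the same protein and the neighbouring gene, had -0.91 ± 0.33 (SE, adjusted p = 0.0637) in KYDS+BGZ_L against BGZ_L and 0.18 ± 0.33 (SE, adjusted p = 0.784) in KYDS against CON livers, and neither passed.

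Etfdh (ENSRNOG00000009538) passes electrons from the acyl-CoA dehydrogenases to ubiquinone. Its values were 14.2, 22.2, 31.3, 27.3 and 18.5 scaled TPM in KYDS livers, against 8.99, 6.96, 20.1, 8.53 and 9.07 in CON livers. CON 3 was the single CON liver within the KYDS range, and the log2 fold change was 1.09 ± 0.31 (SE, adjusted p = 0.0433). With BGZ_L, Etfdh had 24.7, 19.7, 11.8, 29.9 and 19.4 scaled TPM in KYDS+BGZ_L livers, against 13.2, 16.4, 24.9, 11.9 and 19.5 in BGZ_L livers. These overlapped, with a log2 fold change of 0.27 ± 0.31 (SE, adjusted p = 0.573). Both calls in KYDS against CON held in 10 of 20 fits that each left out a library. Hadha was lost without KYDS+BGZ_L 5, KYDS 1, 2, 3 or 5, BGZ_L 5, or CON 1, 2, 3 or 5, and its log2 fold change ran from 0.79 to 1.12 over all 20. Etfdh was lost without KYDS+BGZ_L 5, KYDS 2, 3, 4 or 5, BGZ_L 5, or CON 1, 2, 4 or 5, and ran from 0.97 to 1.34 over all 20. With the nuclear to mitochondrial covariate neither passed: Hadha had 0.35 (adjusted p = 0.878) and Etfdh 1.09 (adjusted p = 0.510).

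The chain-length-specific acyl-CoA dehydrogenases, which start each round, did not pass. In KYDS+BGZ_L against BGZ_L livers their log2 fold changes were 0.52 for Acadvl (very long chains), 0.26 for Acadl (long), -0.05 for Acadm (medium) and 0.23 for Acads (short). In KYDS against CON livers they were 0.23 for Acadvl, 0.41 for Acadl, 0.37 for Acadm and 0.75 for Acads. Acadvl (adjusted p = 0.145) had the smallest adjusted p of these in the first comparison and Acads (adjusted p = 0.191) in the second. Hadh, the short-chain hydroxyacyl-CoA dehydrogenase, averaged 50.8 ± 26.9 scaled TPM in KYDS and 21.2 ± 12.3 in CON livers (SD, n = 5 each), and its log2 fold change of 1.26 ± 0.39 (SE, adjusted p = 0.0588) missed the threshold. Etfa, a subunit of the electron transfer flavoprotein, averaged 79.0 ± 18.3 scaled TPM in KYDS+BGZ_L and 47.8 ± 13.1 in BGZ_L livers (SD, n = 5 each), which just failed to overlap, with a log2 fold change of 0.73 ± 0.26 (SE, adjusted p = 0.0589). Its partner Etfb had 0.31 there and 0.12 in KYDS against CON livers, where Etfa had 0.42. The mitochondrial thiolase Acaa2 had 0.52 with BGZ_L and 0.53 without it, and none of these values passed. Decr1 and Eci1, which handle double bonds, lay between -0.21 and 0.11 in both comparisons.

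Neither peroxisomal member passed. Ehhadh (ENSRNOG00000001770), the L-bifunctional enzyme and a classical PPAR-alpha target in rodents, had 30.2, 11.4, 9.16, 20.6 and 7.15 scaled TPM in KYDS+BGZ_L livers, against 9.93, 19.3, 21.7, 8.73 and 19.1 in BGZ_L livers. In the rats without BGZ_L it had 5.87, 8.77, 20.7, 11.5 and 9.28 scaled TPM in KYDS livers, against 6.01, 10.1, 24.0, 7.79 and 6.47 in CON livers. The livers overlapped in both comparisons, with log2 fold changes of -0.11 with BGZ_L (95% interval -1.0 to 0.79) and 0.12 without it (-0.78 to 1.02). Acaa1a, the peroxisomal thiolase, had log2 fold changes of -0.21 with BGZ_L and -0.26 without it.

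Bdh1 (ENSRNOG00000001736), which interconverts acetoacetate and 3-hydroxybutyrate in mitochondria, had the smallest adjusted p of all members in KYDS against CON livers. It was at 69.9, 42.7, 52.2, 66.4 and 53.9 scaled TPM in KYDS livers, against 28.3, 22.0, 20.1, 25.4 and 26.1 in CON livers. The lowest KYDS liver was above the highest CON liver, with a log2 fold change of 1.2 ± 0.19 (SE, adjusted p = 0.00174). With BGZ_L it was at 52.4, 42.6, 46.2, 49.9 and 43.0 scaled TPM in KYDS+BGZ_L livers, against 31.9, 25.7, 26.4, 38.1 and 33.6 in BGZ_L livers. The groups again did not overlap, and the log2 fold change was 0.59 ± 0.19 (SE, adjusted p = 0.0388). Leaving out any single library kept the call in KYDS against CON (1.12 to 1.29), whereas the call in KYDS+BGZ_L against BGZ_L was lost without KYDS+BGZ_L 1, 3, 4 or 5 or BGZ_L 2 or 3 (0.53 to 0.67 over all 20 fits, adjusted p up to 0.0967). With TPM over nuclear genes both calls were lost (limma adjusted p = 0.188 without BGZ_L and 0.420 with it). The nuclear to mitochondrial covariate also lost both (0.0772 and 0.141). The call with BGZ_L was further lost with median-ratio scaling (0.0584), without scaling (0.0605), with only the 2 groups (0.0648) and without BGZ_L 3 and CON 2 (0.0936). The difference between the log2 fold changes with and without BGZ_L was -0.61 ± 0.27 (SE), with an adjusted p of 0.999.

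The microsomal omega-hydroxylases split. Cyp4a2, Cyp4a3 and Cyp4a8 rose in KYDS+BGZ_L against BGZ_L livers, while Cyp4a1, the fourth member, had values of the other sign that did not pass. Cyp4a2 and Cyp4a3 are near-identical paralogs and the counting method is not known, so reads may have been shared out between them, and their separate levels are uncertain. Their promoters (RefSeq, build GRCr8, minus strand, 250 bases before to 50 after the start) are shown because the genes also moved together. Cyp4a2 lies at chr5:134170859-134171158 and Cyp4a3 at chr5:134352187-134352486, and capitals mark AGGTCA, 1 of the 2 arms of a PPAR direct repeat.
Cyp4a2: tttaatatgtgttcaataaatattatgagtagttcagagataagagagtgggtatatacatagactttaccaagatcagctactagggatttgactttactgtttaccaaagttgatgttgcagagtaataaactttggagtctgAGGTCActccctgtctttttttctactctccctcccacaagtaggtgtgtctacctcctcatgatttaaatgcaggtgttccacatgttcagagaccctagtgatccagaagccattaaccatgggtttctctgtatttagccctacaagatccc
Cyp4a3: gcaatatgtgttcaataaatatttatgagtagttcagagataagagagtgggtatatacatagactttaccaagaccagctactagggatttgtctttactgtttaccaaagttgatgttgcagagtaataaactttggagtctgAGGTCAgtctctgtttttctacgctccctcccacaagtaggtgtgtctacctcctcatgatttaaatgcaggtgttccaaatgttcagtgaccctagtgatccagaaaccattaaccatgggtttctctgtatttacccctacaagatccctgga
In a global alignment, 284 of 295 aligned bases (96.3%) were the same, and AGGTCA began 105 bases before the start in both. On either strand AGGTCA occurred in 16.2% of 33469 rat promoters of this length and in 7 of the 29 members that have an entry. The whole repeat, AGGTCA and AGGTCA with 1 base N between them, was in no member's window and in 0.0538% of promoters.

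Cyp4a2 (ENSRNOG00000030154) was at 51.2, 38.0, 80.3, 89.2 and 48.6 scaled TPM in KYDS+BGZ_L livers, against 60.1, 3.06, 3.27, 4.53 and 17.2 in BGZ_L livers. BGZ_L 1 was the one BGZ_L liver inside the KYDS+BGZ_L range, and the log2 fold change was 2.65 ± 0.64 (SE, adjusted p = 0.00972). Without BGZ_L it was at 41.7, 18.4, 96.0, 19.9 and 15.3 scaled TPM in KYDS livers, against 10.3, 15.0, 13.6, 5.53 and 10.3 in CON livers. Here the groups did not overlap, yet 1.47 ± 0.64 (SE, adjusted p = 0.168) did not pass, with KYDS 3 far above the other KYDS livers. Cyp4a3 (ENSRNOG00000009741) was at 172, 37.4, 102, 181 and 57.3 scaled TPM in KYDS+BGZ_L livers, against 54.9, 5.97, 5.99, 9.63 and 40.7 in BGZ_L livers. BGZ_L 1 and 5 reached above KYDS+BGZ_L 2, the lowest of its group, and the log2 fold change was 2.56 ± 0.76 (SE, adjusted p = 0.0256). The call was lost without KYDS+BGZ_L 1 or 4 or BGZ_L 2, 3 or 4 (2.24 to 3.02 over all 20 fits that each left out a library), and with the nuclear to mitochondrial covariate (1.54, adjusted p = 0.159). In KYDS and CON livers Cyp4a3 was at 86.8, 35.8, 519, 16.3 and 46.4 scaled TPM in KYDS livers, against 23.6, 21.2, 11.8, 15.7 and 21.2 in CON livers. A single liver, KYDS 3, gave the highest value by a wide margin; the log2 fold change was 1.83 ± 0.76 (SE, adjusted p = 0.146), and 1.09 without that liver. The group-centred log2 levels of Cyp4a2 and Cyp4a3 had r = 0.826 over 20 libraries.

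Cyp4a8 (ENSRNOG00000008842) was the lowest of the 32 members. It had 1.5, 0.696, 0.852, 6.51 and 2.37 scaled TPM in KYDS+BGZ_L livers, against 0.165, 0.325, 0, 0.268 and 0.270 in BGZ_L livers. No BGZ_L liver reached the lowest KYDS+BGZ_L liver, BGZ_L 3 is listed at 0, and the log2 fold change was 1.73 ± 0.40 (SE, adjusted p = 0.00760). In KYDS and CON livers Cyp4a8 had 0.318, 1.03, 2.32, 0.412 and 0.837 scaled TPM in KYDS livers, against 0.380, 0.173, 0.0145, 0.372 and 0.382 in CON livers, with 0.84 ± 0.40 (SE, adjusted p = 0.203). It passed the filter on low values only through livers given hydrocortisone, so its call could lie in this direction alone, and under the stricter filter it was not tested. Cyp4a1 (ENSRNOG00000009597) had 69.4, 46.9, 24.6, 74.0 and 34.1 scaled TPM in KYDS+BGZ_L livers, against 51.8, 64.9, 125, 77.4 and 55.3 in BGZ_L livers. Its values in the rats without BGZ_L were 26.0, 102, 58.4, 30.9 and 17.0 scaled TPM in KYDS livers, against 137, 101, 145, 29.5 and 37.6 in CON livers. Both pairs overlapped, with log2 fold changes of -0.62 ± 0.50 (SE, adjusted p = 0.415) with BGZ_L and -0.95 ± 0.50 (SE, adjusted p = 0.257) without it; both took the other sign without scaling, 0.21 and 0.41.

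Among the thioesterases and other targets, Acot2 rose with hydrocortisone on top of BGZ_L and Acot1, Pdk4 and Vnn1 did not pass. Acot2 (ENSRNOG00000010134), the mitochondrial acyl-CoA thioesterase, had 19.3, 7.89, 8.11, 14.5 and 10.2 scaled TPM in KYDS+BGZ_L livers, against 3.10, 2.60, 3.88, 2.01 and 3.51 in BGZ_L livers. The groups were fully apart, and 1.77 ± 0.33 (SE, adjusted p = 0.00277) was the smallest adjusted p among the members in this comparison. Without BGZ_L it had 4.90, 9.38, 11, 3.74 and 6.48 scaled TPM in KYDS livers, against 8.20, 3.07, 3.70, 3.10 and 2.16 in CON livers. CON 1 lay inside the KYDS range, and the log2 fold change of 0.77 ± 0.33 (SE, adjusted p = 0.162) did not pass. Acot1 (ENSRNOG00000055221), its cytosolic neighbour and paralog, had 11.5, 10.3, 9.45, 5.11 and 9.45 scaled TPM in KYDS+BGZ_L livers, against 5.06, 3.73, 9.76, 5.93 and 4.73 in BGZ_L livers. In the other pair Acot1 had 3.56, 9.54, 4.31, 2.73 and 2.89 scaled TPM in KYDS livers, against 9.69, 3.72, 5.21, 2.43 and 7.18 in CON livers. Its log2 fold changes were 0.63 ± 0.36 (SE, adjusted p = 0.232) with BGZ_L and -0.27 ± 0.36 (SE, adjusted p = 0.676) without it, and reads may have been shared between the paralogs.

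Pdk4 (ENSRNOG00000009565), the kinase that shuts pyruvate out of acetyl-CoA when fat is burned, is a target of both PPAR-alpha and glucocorticoids. It was at 1.72, 3.87, 1.59, 1.26 and 0.992 scaled TPM in KYDS+BGZ_L livers, against 1.40, 4.13, 3.97, 2.13 and 3.04 in BGZ_L livers. In KYDS and CON livers it was at 0.527, 1.60, 0.489, 1.58 and 0.871 scaled TPM in KYDS livers, against 2.35, 3.11, 4.34, 0.665 and 0.872 in CON livers. The livers overlapped in both, at log2 fold changes of -0.56 ± 0.40 (SE, adjusted p = 0.350) with BGZ_L and -0.74 ± 0.40 (SE, adjusted p = 0.260) without it; unscaled, these took the other sign, 0.09 and 0.22. Vnn1 (ENSRNOG00000016219), a pantetheinase, was at 9.04, 4.17, 7.72, 8.16 and 5.08 scaled TPM in KYDS+BGZ_L livers, against 5.98, 2.73, 4.75, 6.60 and 6.91 in BGZ_L livers. Without BGZ_L it was at 2.73, 2.68, 11.6, 3.63 and 5.32 scaled TPM in KYDS livers, against 2.72, 3.11, 2.99, 2.30 and 2.38 in CON livers. KYDS 3 was the highest, CON livers were close to each other, and the log2 fold changes were 0.32 ± 0.33 (SE, adjusted p = 0.528) with BGZ_L and 0.64 ± 0.33 (SE, adjusted p = 0.242) without it.

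Fabp1, the liver fatty acid binding protein, was the most abundant member, at a mean of 2730.5 scaled TPM over all livers against 326 for the next, Etfb. It rose in KYDS+BGZ_L against BGZ_L livers. Its promoter (RefSeq, build GRCr8, plus strand, chr4:104749090-104749389) is shown because it was the one member window that held the relaxed form of the PPAR repeat, AGGNCA and AGGNCA with 1 base N between them; capitals mark it, read on the opposite strand.
Fabp1: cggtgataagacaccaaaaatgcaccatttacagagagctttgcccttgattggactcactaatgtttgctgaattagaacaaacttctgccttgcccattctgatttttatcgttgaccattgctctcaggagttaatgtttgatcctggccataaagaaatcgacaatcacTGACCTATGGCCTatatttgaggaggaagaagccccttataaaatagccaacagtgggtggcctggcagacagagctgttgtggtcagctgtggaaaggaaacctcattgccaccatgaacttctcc
The match began 77 bases before the start and also holds 1 AGGTCA on the opposite strand. The relaxed repeat occurred in 0.415% of the 33469 promoters on either strand. AGAACA, 1 arm of the glucocorticoid receptor's palindrome, was in this window too, as in Acot1 and Acot2, and in 20.7% of all promoters; the full palindrome, AGAACA and TGTTCT with NNN between them, was in no member's window and in 0.0149% of promoters.

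Fabp1 (ENSRNOG00000006675) was at 4393, 2412, 2581, 5203 and 4592 scaled TPM in KYDS+BGZ_L livers, against 1150.2, 1599.9, 2481, 1496 and 1510.1 in BGZ_L livers. BGZ_L 3 overlapped with KYDS+BGZ_L 2, and the log2 fold change was 1.2 ± 0.40 (SE, adjusted p = 0.0455). The call was close to the threshold and held in 9 of 20 fits that each left out a library (1.07 to 1.36 over all 20). It was lost without KYDS+BGZ_L 1, 4 or 5, KYDS 1, 2 or 5, BGZ_L 1, 2, 4 or 5, or CON 5. Median-ratio scaling (limma adjusted p = 0.0555), TPM over nuclear genes (0.175) and fitting without the filter on low values (0.0715) also lost it. So did the replicate block (0.0557), the nuclear to mitochondrial covariate (log2 fold change 0.87, adjusted p = 0.223) and leaving out BGZ_L 3 and CON 2 (0.0504). In KYDS and CON livers Fabp1 was at 2643, 3197, 7561, 1433 and 3861 scaled TPM in KYDS livers, against 2921, 1095, 2082, 1059 and 1338 in CON livers. KYDS 3 was highest, KYDS 1 and 4 lay within the CON range, and 1.05 ± 0.40 (SE, adjusted p = 0.118) did not pass.

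Plin2 (ENSRNOG00000007060), the coat protein of lipid droplets, rose in both comparisons. It was at 26.7, 21.1, 17.1, 18.9 and 14.3 scaled TPM in KYDS+BGZ_L livers, against 5.39, 8.26, 10.1, 5.81 and 7.32 in BGZ_L livers. All KYDS+BGZ_L livers lay above all BGZ_L livers, with a log2 fold change of 1.36 ± 0.35 (SE, adjusted p = 0.0122). Without BGZ_L it was at 13.4, 27.5, 16.8, 25.0 and 9.44 scaled TPM in KYDS livers, against 8.47, 6.57, 16.8, 4.39 and 3.87 in CON livers. CON 3 overlapped with KYDS livers, and the log2 fold change was 1.24 ± 0.35 (SE, adjusted p = 0.0418). This second call was lost without KYDS 1, 2, 3 or 4, BGZ_L 5, or CON 1, 2, 4 or 5 (1.04 to 1.54 over all 20 fits that each left out a library, adjusted p up to 0.0958).

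Several library properties moved with these results. The mean mitochondrially encoded share was 48.9% in KYDS+BGZ_L, 42.4% in KYDS, 67.3% in BGZ_L and 75.1% in CON livers. Of 13 such transcripts, 8 fell in KYDS against CON and none passed in KYDS+BGZ_L against BGZ_L livers. All 13 lay below 0 in both comparisons, with median log2 fold changes of -1.21 with BGZ_L and -2.35 without it. Of the 11 hepatocyte markers, 8 rose in KYDS+BGZ_L against BGZ_L and 2 in KYDS against CON livers. All 11 lay above 0 in both comparisons. Their median log2 fold changes were 1.86 with BGZ_L and 1.29 without it, beside 0.32 and 0.48 for the 32 members. With the log2 ratio of nuclear to mitochondrially encoded TPM as a covariate, 3 members passed in KYDS+BGZ_L against BGZ_L livers, Acot2, Cyp4a8 and Plin2. None passed in KYDS against CON livers. Over all 11869 genes, 669 passed with the covariate in the first comparison and 23 in the second. Without the covariate, 2062 and 744 passed. Without BGZ_L 3 and CON 2, 6 members passed in the first comparison, namely Acot2, Acsl1, Cyp4a2, Cyp4a8, Plin2 and, lower, Ppara. Bdh1 alone passed in the second. In that fit 1362 and 256 of 11974 genes passed. Bdh1 was also the one member that passed in KYDS against CON livers in a fit of those 2 groups alone, where 181 genes passed. The same held in a fit without the filter on low values, where 367 of 19797 genes passed. Of the other cell types' lists, Cd163 was the 1 of 10 macrophage markers that rose in both comparisons, and none of 9 endothelial markers passed. The log2 fold change lay above 0 for 3 of the 10 macrophage markers with BGZ_L and for 9 without it. The macrophage markers summed to 68.2 to 247 scaled TPM in KYDS+BGZ_L, 90.9 to 239 in KYDS, 66.5 to 845 in BGZ_L and 64.7 to 98.5 in CON livers. Pdgfrb, 1 of 9 stellate cell and fibroblast markers, rose in both, with sums of 49.5 to 63.3, 38.2 to 61.3, 37.3 to 76.7 and 25.8 to 111 in KYDS+BGZ_L, KYDS, BGZ_L and CON livers. Of these 9 markers, 4 lay above 0 with BGZ_L and 3 without it. Tnni3, 1 of 2 muscle markers tested, fell in both, with muscle marker sums of 0.369 to 1.28 in KYDS+BGZ_L, 0.387 to 2.56 in KYDS, 3.16 to 9.27 in BGZ_L and 2.69 to 5.23 in CON livers. Lep and Klrb1 were listed at 0 in every library. The part of these properties in the members' changes was not tested beyond the covariate fit.

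No member passed in either comparison of BGZ_L with its absence. In KYDS+BGZ_L against KYDS livers no member passed, with 0.126% of all genes passing (0.059% higher and 0.0674% lower). The unadjusted p in limma was under 0.05 for 2 members, Acot1 and Acot2, and for 405 of the 11869 genes. Acot1 averaged 9.17 ± 2.43 scaled TPM in KYDS+BGZ_L and 4.61 ± 2.83 in KYDS livers (SD, n = 5 each), a log2 difference of 1.01 with a 95% interval of 0.27 to 1.76 (adjusted p = 0.853). For Acot2 the log2 difference was 0.73, with an interval of 0.03 to 1.43 (adjusted p = 1.00). Ppara, at 2.64 ± 1.77 in KYDS+BGZ_L and 6.98 ± 4.91 in KYDS livers (SD, n = 5 each), had -1.09 with an interval of -2.33 to 0.14. The median over the 32 members was 0.17, beside -0.02 over all genes. This comparison shares the KYDS libraries with KYDS against CON, so the values of the 2 are not independent.

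In BGZ_L against CON livers, no member and no gene at all passed (0% of 11869), and 3 members and 715 genes had an unadjusted p under 0.05. The 3 members were Vnn1, Hadhb and Etfdh. Vnn1 averaged 5.39 ± 1.71 scaled TPM in BGZ_L and 2.70 ± 0.359 in CON livers (SD, n = 5 each), a log2 difference of 0.83 with an interval of 0.14 to 1.51 (adjusted p = 0.784). Hadhb had 19.5 ± 7.0 in BGZ_L and 10.8 ± 4.92 in CON livers (SD, n = 5 each), a log2 difference of 0.84 (0.14 to 1.53, adjusted p = 0.784). For Etfdh it was 0.71 (0.06 to 1.35, adjusted p = 0.797). The intervals of the other 29 members included 0, and several remained wide, as for Cyp4a3 (-1.83 to 1.34) and Ppara (-1.0 to 1.47), so differences of that size could not be seen with 5 rats a group.

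Whether BGZ_L altered the response to hydrocortisone was tested as an interaction, the log2 fold change with BGZ_L minus that without it. No member passed (0.0253% of all genes did, 0.00843% upward and 0.0169% downward). The unadjusted limma p was under 0.05 for 3 members and for 447 of the 11869 genes. The 3 were Hadhb (-1.09 ± 0.47, SE), Bdh1 (-0.61 ± 0.27) and Acot2 (1.00 ± 0.47), each with an adjusted p of 0.999. For Ppara the interaction was -1.33, with a 95% interval of -3.07 to 0.42, and for Cyp4a2 it was 1.18 (-0.71 to 3.08). A call in one hydrocortisone comparison and not in the other, as for Cyp4a2, Ppara or Hadha, was thus not shown to be a difference between them.

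Within groups, the members did not vary as 1 block. Over the 496 pairs of members, Pearson's r of group-centred log2 levels over 20 libraries had a median of 0.258, and 342 pairs were above 0; all values of a library share its scaling factor, and the correlations are a description. The highest was 0.916 for Acadm and Hadh, followed by Acot2 with Eci1 (0.904) and Hadha with Slc25a20 (0.898). Ppara had a mean r of -0.37 with the other members and -0.889 with Hadh, the lowest of all pairs, while Cpt1a followed it (0.757). The neighbouring subunit genes Hadha and Hadhb had 0.362 and the neighbouring thioesterases Acot1 and Acot2 0.412. Members also followed the library's nuclear to mitochondrially encoded ratio: the median r with its log2 value was 0.347, beside 0.034 over all genes, from -0.653 for Pdk4 to 0.743 for Hadha.

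**Figure D3:**
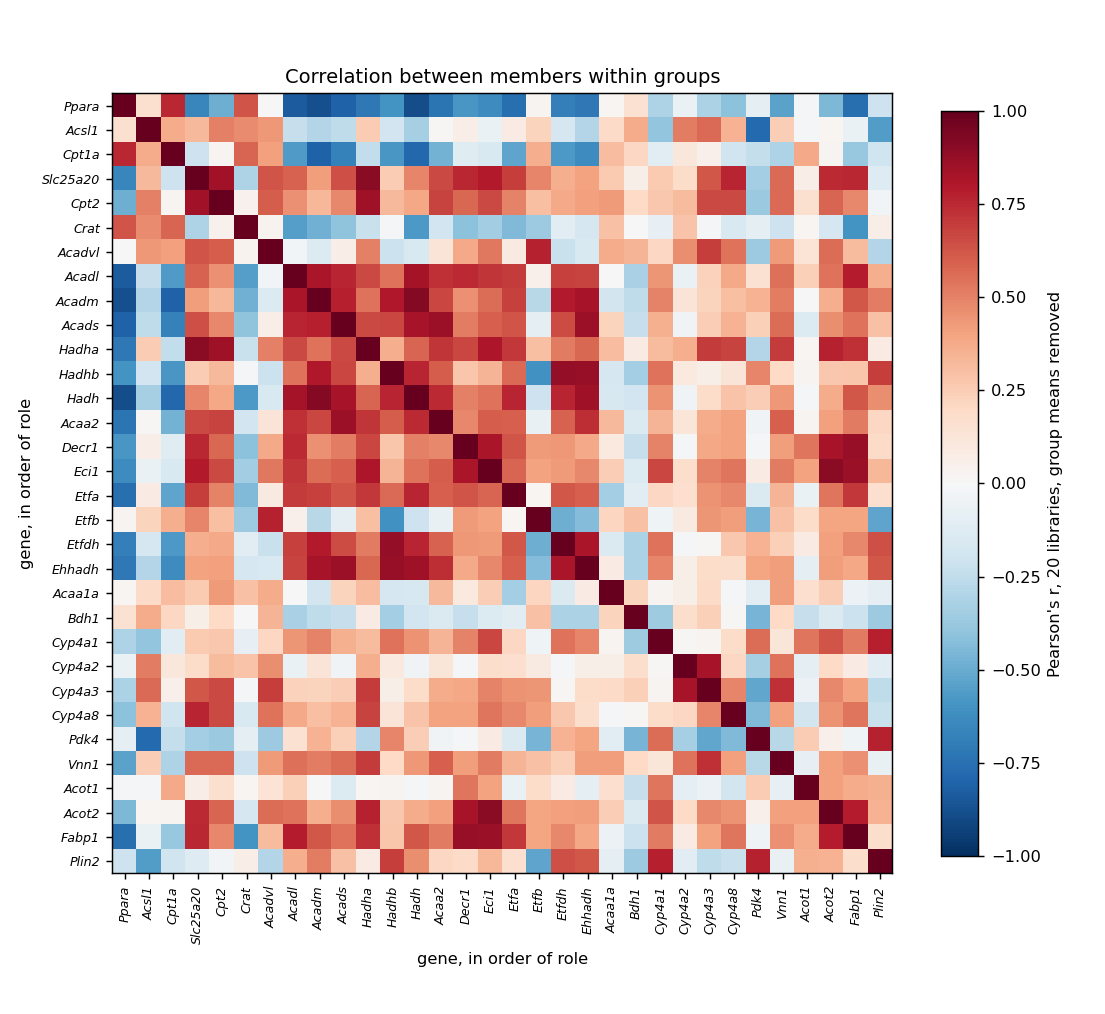
Pearson's r between members (both axes, ordered by role), from log2 levels with group means removed, over 20 libraries; red is positive, blue negative, on a scale of -1 to 1. The reddest cell is Acadm with Hadh at 0.916, and the bluest is Ppara with Hadh at -0.889, in a Ppara row with a mean of -0.37.

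In each group a few livers were high for many members. KYDS 3, with the lowest mitochondrially encoded share (19.2%), was the highest KYDS liver for 23 of 32 members. KYDS+BGZ_L 1 and 4, at 26.6% and 35.1%, were the highest in their group for 16 and 12 members. BGZ_L 3, with the highest such share of the BGZ_L livers (81.9%), was highest for 14 members, and CON 1 and CON 3, at 65.6% and 80.8%, for 12 each. CON 3 was also the lowest CON liver for 11 members. The group means were highest in KYDS+BGZ_L livers for 17 members, in KYDS for 6, in BGZ_L for 7 and in CON for 2. Summed over the 32 members, the share of nuclear-encoded TPM was 1.53% ± 0.362 in KYDS+BGZ_L, 1.65% ± 0.493 in KYDS, 0.929% ± 0.439 in BGZ_L and 0.997% ± 0.495 in CON livers (SD, n = 5 each). Fabp1 held 62.0% to 72.6% of that sum in KYDS+BGZ_L, 54.7% to 70.8% in KYDS, 44.0% to 60.0% in BGZ_L and 45.4% to 60.7% in CON livers. Without Fabp1 the share was 0.517% ± 0.108 in KYDS+BGZ_L, 0.553% ± 0.111 in KYDS, 0.452% ± 0.228 in BGZ_L and 0.444% ± 0.168 in CON livers (SD, n = 5 each). Nuclear-encoded TPM here includes ribosomal RNA genes. BGZ_L 1, with its 18.4% of ribosomal RNA genes, had the lowest share of all, 0.229%.

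**Figure D4:**
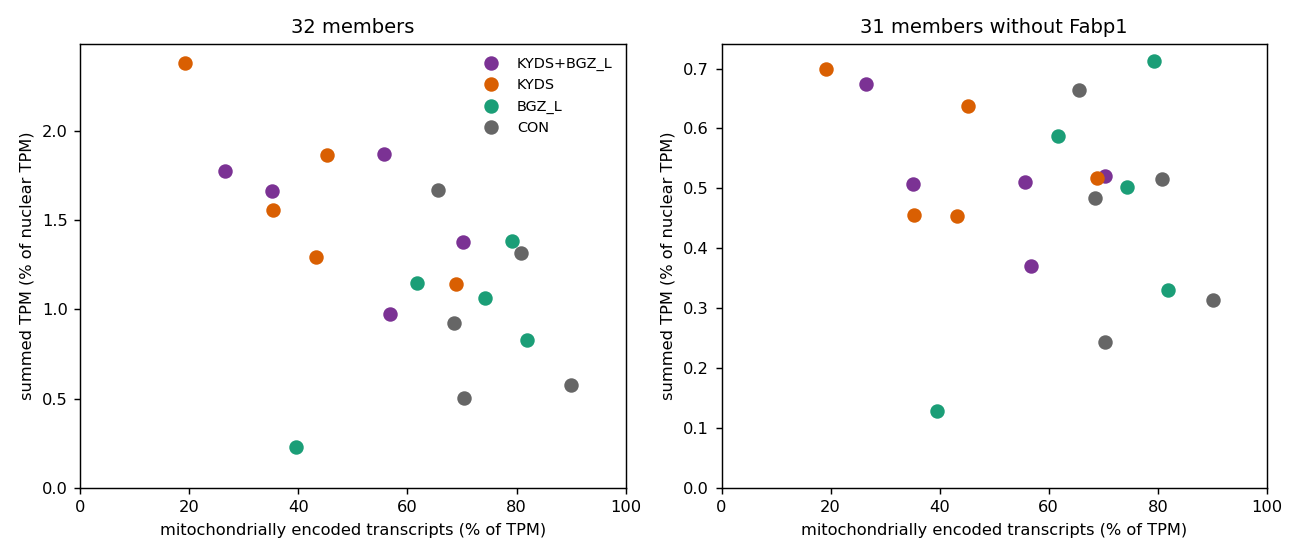
Summed TPM of the members as a percentage of nuclear-encoded TPM (vertical axes) against the percentage of TPM from mitochondrially encoded transcripts (horizontal axes), for 32 members (left) and for 31 without Fabp1 (right); each point is a liver, coloured by group. In the left panel KYDS 3 is at the top left with 2.38%, and BGZ_L 1 is lowest with 0.229%. The 4 groups overlap in both panels.

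The wider pathway was read from lists of other genes, none of them among the 34, at the same threshold. Counts of these lists stand beside the 17.4% of all genes that passed with BGZ_L and the 6.27% that passed without it. Of 18 further peroxisomal genes tested, 7 rose and 1 fell in KYDS+BGZ_L against BGZ_L, and 5 rose in KYDS against CON livers. Crot, which makes medium-chain acylcarnitines for export, was at 16.6, 20.2, 8.49, 24.3 and 24.7 scaled TPM in KYDS+BGZ_L livers, against 4.25, 4.41, 5.53, 3.27 and 8.20 in BGZ_L livers. In the other pair Crot was at 43.7, 17.8, 18.2, 10.02 and 11.7 scaled TPM in KYDS livers, against 2.70, 1.81, 4.34, 3.40 and 4.12 in CON livers. Neither pair overlapped, and the log2 fold changes were 1.75 ± 0.37 (SE, adjusted p = 0.00459) with BGZ_L and 2.31 ± 0.37 (SE, adjusted p = 0.00163) without it. Hsd17b4, the D-bifunctional enzyme, rose by 1.62 with BGZ_L and 1.01 without it, and Amacr, a racemase for branched chains, by 0.78 and 1.46, all on the log2 scale. Acox2, a branched-chain oxidase, rose in KYDS against CON livers (1.19). Phyh, the hydroxylase of phytanic acid oxidation, was the gene that fell with BGZ_L (-0.84 on the log2 scale), named here after its value was seen.

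Of 22 other known PPAR-alpha targets tested, 10 rose in KYDS+BGZ_L against BGZ_L and 5 in KYDS against CON livers, and none fell. Gk, the glycerol kinase, rose by 1.92 ± 0.25 with BGZ_L and 2.29 ± 0.25 without it (SE) on the log2 scale. Fgf21, a fasting hormone of the liver, was at 7.52, 6.56, 3.43, 7.15 and 6.35 scaled TPM in KYDS+BGZ_L livers, against 0.351, 0.882, 0.232, 0.996 and 1.55 in BGZ_L livers. In the rats without BGZ_L Fgf21 was at 7.25, 11.1, 5.18, 3.24 and 4.14 scaled TPM in KYDS livers, against 6.24, 3.54, 1.26, 0.515 and 1.22 in CON livers. It rose in the first pair, by 2.42 on the log2 scale; in the second CON 1 and 2 were within the KYDS range and the log2 fold change of 1.35 ± 0.44 (SE, adjusted p = 0.0685) missed the threshold. Angptl4, an inhibitor of lipoprotein lipase, rose in KYDS+BGZ_L against BGZ_L livers (2.15) and had 1.63 ± 0.63 (SE, adjusted p = 0.118) in KYDS against CON livers, which did not pass. Cyp8b1, the sterol hydroxylase of bile acid synthesis, and G0s2, an inhibitor of triglyceride lipase, rose in KYDS against CON livers, by 2.72 and 2.39.

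Of 23 coregulators tested, 1 rose and 2 fell in KYDS+BGZ_L against BGZ_L livers and none passed in KYDS against CON livers. In the first comparison, 2 of 16 uptake genes and 2 of 20 other mitochondrial enzymes passed; like that of the coregulators, these shares were below the 17.4% of all genes. Ppargc1a, the fasting-induced coactivator of PPAR-alpha, was at 0.196, 3.05, 1.41, 0.0988 and 0.679 scaled TPM in KYDS+BGZ_L livers, against 2.50, 15.6, 33.2, 9.58 and 5.88 in BGZ_L livers. KYDS+BGZ_L 2 alone reached the lowest BGZ_L liver, and the log2 fold change was -2.99 ± 0.63 (SE, adjusted p = 0.00470). In the other pair it was at 1.60, 9.02, 0.551, 2.82 and 0.699 scaled TPM in KYDS livers, against 5.93, 6.14, 9.66, 7.03 and 4.80 in CON livers, with -1.54 ± 0.63 (SE, adjusted p = 0.140). The corepressor Ncor1 fell by 1.06 on the log2 scale. The corepressor Nrip1, the 1 coregulator that rose, did so by 0.64 and was at no more than 0.587 scaled TPM in any liver. That ceiling is just above the cutoff of the filter on low values, so with this rise most BGZ_L livers must lie below the cutoff. Nrip1 thus passed the filter mainly through other livers and could hardly have been called lower. Of 16 uptake and activation genes, Slc27a5, which activates bile acids and very long-chain fatty acids, rose (1.27) and Acsm3, a medium-chain ligase, fell (-1.02) in KYDS+BGZ_L against BGZ_L livers. Of 20 other mitochondrial acyl-CoA enzymes, Mcee, the methylmalonyl-CoA epimerase, rose (1.09) and Acadsb, a branched-chain dehydrogenase, fell (-1.45) in that comparison. Mecr, a reductase of mitochondrial fatty acid synthesis, fell in KYDS against CON livers (-0.98). The medians of the lists in KYDS+BGZ_L against BGZ_L and KYDS against CON livers were 0.65 and 0.64 for peroxisomal genes, 0.98 and 0.73 for other targets, 0.08 and 0.14 for coregulators, 0.21 and 0.34 for uptake and 0.04 and 0.09 for the other mitochondrial enzymes.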

How the data were processed

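Per the labels' protocols, liver RNA of 20 rats was isolated by Trizol with a DNase I step, TruSeq libraries were made, and read 1 of each pair was used. The authors deposited a table called raw counts; its values carry 2 decimals and add up to 914343 to 983962 in each library, and they were treated as TPM, which the authors scaled by gene length. The aligner is not given in the sources used here, nor is the counting tool. The submitters' processing notes list mouse genome builds, whereas the gene IDs are rat Ensembl IDs, so the build is not known. With TPM the depth per sample is unknown, no count test was run, and precision rests on the spread between 5 rats a group.

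Groups came from the sample titles. TPM were divided by an unweighted trimmed-mean factor per library (trimming 30% of log ratios and 5% of levels from both tails), and genes with at least 0.5 scaled TPM in at least 5 libraries were kept, 11869 of 32883. All 32 members passed this filter. One limma fit (limma 3.58.1, R 4.3.3, trend and robust prior) on log2(scaled TPM + 0.5) held all 20 libraries with 16 residual degrees of freedom. P-values were two-sided and Benjamini-Hochberg adjusted over the 11869 genes, with a threshold of 0.05. Fold changes are on that log2 scale, which understates changes of low genes. The script was tested on simulated data.

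The members and lists were chosen with earlier results of these data known. Every member was named. Library values were given for 11 members chosen by name, of which Cd36 was not analysed here, and for each member that passed in a hydrocortisone comparison. From each other list at most 4 passing genes were named, by smallest adjusted p, with Angptl4, Fgf21 and Ppargc1a; some genes and 1 list under this rule are not reported here, whatever their values. Library values of Crot, Fgf21 and Ppargc1a were added after their values were seen. Where a symbol had several rows (196 symbols), the row with the highest mean was used. Promoters were matched by symbol in RefSeq (build GRCr8) for 29 of the 34 genes, without Acaa2, Acadl, Cyp4a1, Decr1 and Vnn1, and the single AGGTCA was added to the search after the other motifs. Alternatives changed the scaling, added constant, filter, prior, libraries, replicate block and a nuclear to mitochondrial covariate. Figures were drawn with matplotlib 3.10.9 in Python 3.11.15.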

Additional observations from a re-analysis of the deposited data

Results flagged for a closer look

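Among 72 sets of 5 livers, 18 members in 4 groups, 3 held a liver whose gap to the nearest other liver exceeded Dixon's critical value of 0.71 of the group's range, and chance alone flags about 1 in 20. Cpt1a was at 9.24 scaled TPM in KYDS+BGZ_L 4, against 19.7 to 22.9 in the other KYDS+BGZ_L livers. Acot1 was at 5.11 scaled TPM in the same liver, against 9.45 to 11.5 in the others of its group. Etfdh was at 20.1 scaled TPM in CON 3, against 6.96 to 9.07 in the other CON livers.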

How the results depend on the processing

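The count of members that passed was 10 in KYDS+BGZ_L against BGZ_L and 5 in KYDS against CON livers. In the first comparison it was 5 with TPM over nuclear genes, 3 with the nuclear to mitochondrial covariate and 6 without BGZ_L 3 and CON 2, and 8 to 10 under the other settings that kept all libraries. In the second it was 3 with median-ratio scaling, 25 without scaling, 0 with TPM over nuclear genes (limma), 1 without the filter, 1 with only the 2 groups in the fit, 0 with the covariate and 1 without BGZ_L 3 and CON 2. Leaving out 1 library gave 5 to 11 and 1 to 6, and the replicate block 9 and 2. Over all genes, 2062 passed in the first comparison and 744 in the second. These were 576 and 92 with TPM over nuclear genes, 669 and 23 with the covariate, and 1362 and 256 without BGZ_L 3 and CON 2. In the second comparison they were also 667 with median-ratio scaling, 5933 without scaling, 367 without the filter and 181 with only the 2 groups. With 1 library left out they ran from 1102 to 2517 in the first comparison and from 224 to 1075 in the second. The replicate block gave 1889 and 557. The cause of these shifts was not tested. Same-number libraries of different groups did not vary together: 7 of 30 pairs had a correlation above 0.1 (-0.46 to 0.33) and 4 of 20 libraries were closest to their own number, so the numbers were not read as pairs. In the 3 other comparisons no member passed under any setting in limma; the 2-group fit could not be made for the interaction, and no count model was run. Of 2300 refits of 72 gene results, 2084 kept their direction and side of the threshold, 120 lost a call, 11 gained one and 85 took the other sign. Acot2 and Cyp4a8 in KYDS+BGZ_L against BGZ_L livers kept their call in every refit that tested them; Cyp4a8 passed the filter only through livers given hydrocortisone and was not tested under the stricter filter. None of the 15 calls changed sign. Without scaling, the log2 fold change took the other sign in KYDS against CON livers for Ppara (0.57), Cyp4a1 (0.41), Pdk4 (0.22) and Acot1 (0.92), in KYDS+BGZ_L against BGZ_L livers for Ehhadh (0.70), Cyp4a1 (0.21) and Pdk4 (0.087), in KYDS+BGZ_L against KYDS livers for Ehhadh (-0.022), Cyp4a1 (-0.17), Plin2 (-0.26), Fabp1 (-0.26) and Slc25a20 (-0.00473), in BGZ_L against CON livers for Cyp4a1 (0.023). With TPM over nuclear genes, the log2 fold change took the other sign in KYDS+BGZ_L against KYDS livers for Plin2 (-0.092) and Fabp1 (-0.081), in BGZ_L against CON livers for Ppara (-0.00858), Plin2 (-0.20), Fabp1 (-0.24) and Acot1 (-0.12). With median-ratio scaling, the log2 fold change took the other sign in KYDS+BGZ_L against BGZ_L livers for Cpt1a (-0.028), in KYDS+BGZ_L against KYDS livers for Hadha (0.00503). With the nuclear to mitochondrial ratio as covariate, the log2 fold change took the other sign in KYDS against CON livers for Pdk4 (0.13) and Cyp4a3 (-0.013), in KYDS+BGZ_L against BGZ_L livers for Cpt1a (-0.082), in KYDS+BGZ_L against KYDS livers for Hadha (0.11), in BGZ_L against CON livers for Fabp1 (-0.13). Without BGZ_L 3 and CON 2, the log2 fold change took the other sign in KYDS+BGZ_L against BGZ_L livers for Cpt1a (-0.11) and Ehhadh (0.047), in KYDS+BGZ_L against KYDS livers for Hadha (0.027), in BGZ_L against CON livers for Cpt1a (0.032), Plin2 (-0.089), Fabp1 (-0.26), Acot1 (-0.18), Cyp4a2 (0.24) and Cyp4a3 (0.13). Leaving out 1 library changed the sign in KYDS against CON livers for Ehhadh (-0.12 to 0.45). Leaving out 1 library changed the sign in KYDS+BGZ_L against BGZ_L livers for Cpt1a (-0.13 to 0.28) and Ehhadh (-0.39 to 0.12). Leaving out 1 library changed the sign in KYDS+BGZ_L against KYDS livers for Cyp4a1 (-0.029 to 0.61), Plin2 (-0.047 to 0.33), Fabp1 (-0.12 to 0.48), Cyp4a3 (-0.00892 to 1.23), Etfdh (-0.26 to 0.074) and Hadha (-0.20 to 0.20). Leaving out 1 library changed the sign in BGZ_L against CON livers for Ppara (-0.15 to 0.54), Cpt1a (-0.42 to 0.041), Cyp4a1 (-0.39 to 0.18), Plin2 (-0.15 to 0.34), Fabp1 (-0.13 to 0.25), Acot1 (-0.12 to 0.33), Acot2 (-0.43 to 0.000463), Cyp4a8 (-0.24 to 0.015), Cyp4a2 (-0.89 to 0.13) and Cyp4a3 (-0.70 to 0.077).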
